A study of Mus musculus with 8 samples.

Results

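Genes used in other studies to trace or sort skeletal stem cells of periosteum and bone marrow were examined in sorted cells of the mouse fracture callus. The genes are Ctsk, Nes, Acta2, Ly6a, Mcam, Cspg4 and Vcam1. The rule named them by their use elsewhere and used no measured value, although earlier results of these data were known when it was made, and a probe set was taken where the array annotation gave it exactly 1 of these symbols. Of the 7 genes, 6 had such probe sets, 13 in all, among 18193 genes on the array. Ly6a, which encodes the surface protein Sca-1, had none and was not analysed here.

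Skeletal stem cells (SSCs) and bone, cartilage and stromal progenitors (BCSPs), which arise from SSCs, were sorted from the callus and measured without culture on Affymetrix arrays. All mice were males of strain C57/Bl6, 10 to 12 weeks old, with a femoral fracture through both cortices held by an intramedullary pin. The labels give harvest on day 7, and the study's methods give a later day. Each of 4 experiments gave 1 SSC and 1 BCSP array from 10000 sorted cells per population. Both populations were negative for CD45, Ter119, Tie2, 6C3 and Thy1 and positive for CD51. SSCs were in addition CD200+ and CD105-, and BCSPs were CD105+. The animals carried no transgene in the labels, so the genes below were read as transcripts and not as reporter activity. The tests measure the spread between these arrays, whose number limits the precision.

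Lineage tracing marks a cell and its descendants by a gene that the cell transcribes, and several such genes have been used to find stem cells of bone. Ctsk encodes cathepsin K, the collagen-degrading protease of osteoclasts, and its promoter also labels periosteal cells. Nestin, alpha smooth muscle actin, MCAM (CD146) and the NG2 proteoglycan encoded by Cspg4 are features of cells around blood vessels, and Vcam1 encodes an adhesion molecule of marrow stroma and activated endothelium.

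The Acta2 promoter is printed because Acta2 gave the only member probe set whose populations did not overlap, and because it is the classic target of serum response factor, which binds CArG boxes. It lies at chr19:34255324-34255623 on the minus strand of GRCm38.p6 (RefSeq) and covers 250 bases before to 50 after the start used. That start lies inside the span given for the gene below, which reaches 34255585, so most of the window is within that span. Distances are counted from the start used and not from the end of the span. CArG boxes are in capitals.
Acta2: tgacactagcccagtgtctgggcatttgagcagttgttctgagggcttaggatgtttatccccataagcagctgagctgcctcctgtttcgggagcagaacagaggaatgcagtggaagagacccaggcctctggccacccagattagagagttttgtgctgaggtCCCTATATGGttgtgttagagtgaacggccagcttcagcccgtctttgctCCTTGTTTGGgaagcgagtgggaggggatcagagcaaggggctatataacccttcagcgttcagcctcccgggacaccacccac
A CArG box was searched as CC, 6 letters of A or T of which 1 may differ, and GG, a pattern that reads the same on both strands. The Acta2 window held 2, CCCTATATGG at 84 and CCTTGTTTGG at 34 bases before the start. Of 32851 promoters of 300 bases, 9.98% held 1 or more and 0.822% held 2 or more. The windows of Ctsk, Nes, Mcam and Cspg4 held 0. Among smooth muscle contractile genes 1 of 8 with a promoter, Myl9, held any. A match is a description of letters only.

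Each deposited value is a Gene Expression Commons activity score, which places a probe set within the range it spans over many public arrays. A score of -100 is the inactive end, 100 the active end, and 0 the threshold between them. Because the scale flattens near its ends, differences are in points and not folds, and scores of different genes do not rank their mRNA amounts. On each array 29.0% to 31.0% of probe sets were above 0. Probe sets of 37 genes of unrelated tissues, such as retina and liver, served as a silent reference, and their 95th percentile lay between -24.3 and -6.10 on the 8 arrays. Among the genes of the sort, Cd200 scored 97.5 ± 1.70 on SSC arrays (SD, n = 4) and 96.6 ± 2.46 on BCSP arrays (SD, n = 4), and Eng, which encodes CD105, scored -45.6 ± 14.4 (SD, n = 4) and 12.8 ± 24.9 (SD, n = 4). Of the 7 sort genes, 2 were above 0 on all 8 arrays (Cd200 and Itgav) and 0 differed after adjustment. Itgav was read by the highest of its 5 probe sets, and the others were above 0 on at most 1 array.

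Of the 13 member probe sets, 4 were above 0 on all 8 arrays, against 16.1% of all probe sets, and 9 were above 0 on no array, against 49.5%. The 4 belong to Ctsk, Cspg4 and Vcam1. The 9 comprise every probe set of Nes, Acta2 and Mcam and the other two of Vcam1. The same 4 were counted with the silent reference's 95th percentile as the threshold on all 8 arrays. Some of the 9 exceeded it on part of the arrays. Nes 1418289_at did so on 5, Acta2 1416454_s_at on 4, and Nes 1453997_a_at and Mcam on 2 each. Nes 1449022_at, Acta2 1456658_at and Vcam1 1451314_a_at did so on 1 each, and Acta2 1444105_at and Vcam1 1415989_at on 0.

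**Figure D1:**
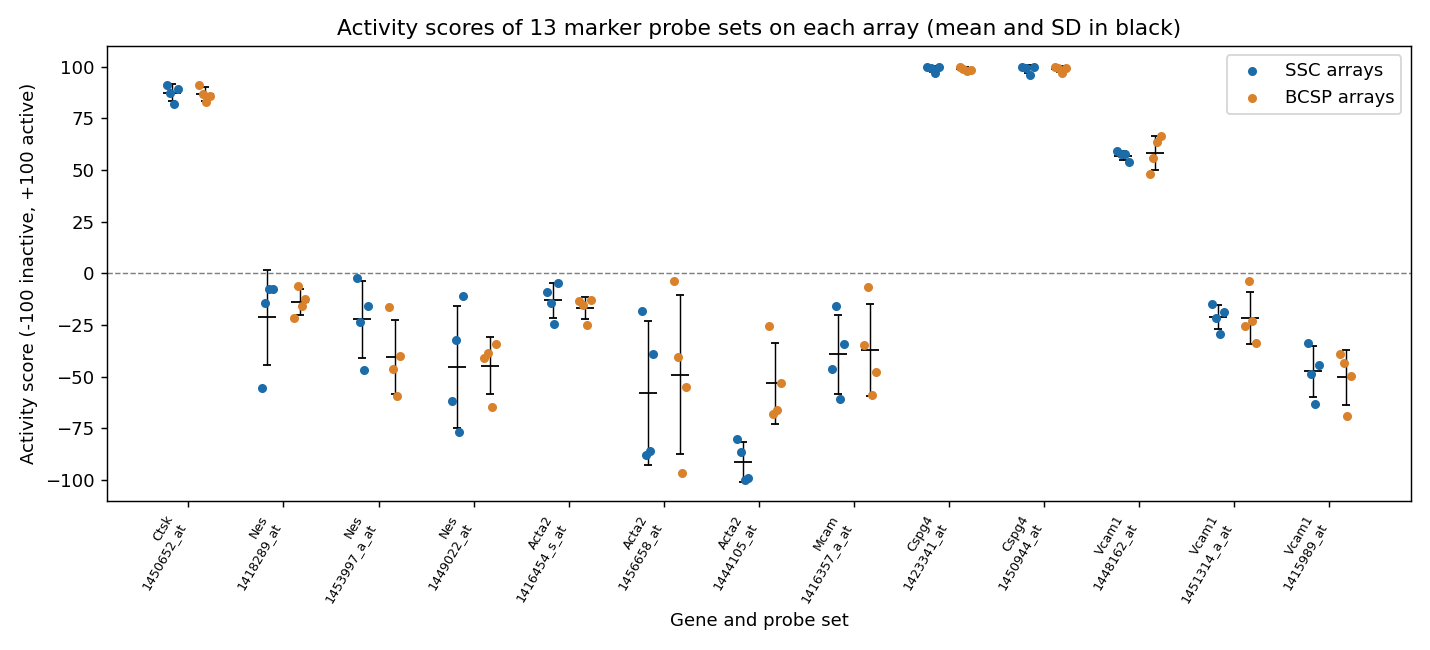
Activity score (vertical axis, -100 to 100) of each member probe set on the 4 SSC arrays (blue) and the 4 BCSP arrays (orange), with mean and SD in black and the threshold of 0 dashed. Ctsk, both Cspg4 probe sets and 1 Vcam1 probe set lie above 0 on all 8 arrays, and the other 9 on none.

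Ctsk (chr3:95499210-95509387, GRCm38.p6) scored 91.07, 87.36, 81.67 and 89.23 on SSC arrays 1 to 4 and 90.94, 86.98, 82.9 and 86.0 on BCSP arrays 1 to 4. All values were high and the populations overlapped. They exceeded 93.8% to 97.1% of probe sets on the same array. The difference was 0.63 points (SE 3.06, 95% interval -6.26 to 7.51), higher in SSCs in 3 of 4 experiments (limma adjusted p = 1).

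Osteoclasts also transcribe Ctsk, so their other genes were read beside it. Of 10 osteoclast genes, 1 was above 0 on all 8 arrays and 7 on none, and the list's median ran from -57.1 to -21.1 on SSC arrays and from -34.5 to -12.0 on BCSP arrays. The 1 was Nfatc1, the transcription factor that drives osteoclast formation, at 82.6 ± 4.97 on SSC arrays (SD, n = 4) and 84.4 ± 7.82 on BCSP arrays (SD, n = 4). Itgb3 scored 10.6 ± 23.6 on SSC arrays (SD, n = 4) and 4.19 ± 16.9 on BCSP arrays (SD, n = 4). It was above 0 on 4 arrays and Oscar on 1, with the other probe set of each on 0. Car2, the carbonic anhydrase of acid secretion, scored -92.3 ± 2.67 (SD, n = 4) and -83.3 ± 7.0 (SD, n = 4), and Dcstamp, needed for cell fusion, -56.2 ± 21.8 (SD, n = 4) and -34.5 ± 16.2 (SD, n = 4). Calcr was likewise below 0 on all arrays. Mmp9 was below 0 too, at -22.0 ± 26.9 on SSC arrays (SD, n = 4) and -6.11 ± 3.95 on BCSP arrays (SD, n = 4). On most arrays, however, Mmp9 exceeded the silent reference's 95th percentile. Of 11 cathepsins and cystatins, 5 were above 0 on all 8 arrays, among them Ctsh, Ctsf and the inhibitors Cst3 and Cstb, and 0 differed after adjustment. The other probe set of Ctsf was above 0 on 1 array and that of Cstb on 0, while that of Ctsh was on 8.

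Cspg4 (chr9:56865104-56899870) scored highest of the members against its own range. Probe set 1423341_at read 99.95, 99.28, 96.92 and 99.71 on SSC arrays 1 to 4 and 99.95, 98.99, 97.66 and 98.51 on BCSP arrays 1 to 4. Probe set 1450944_at read 100, 99.16, 95.88 and 99.73 on SSC arrays and 100, 99.13, 96.79 and 99.16 on BCSP arrays. Every value lay close to the upper end, where the score levels off, and the populations overlapped. The differences were 0.19 points (95% interval -3.72 to 4.09) and -0.08 points (95% interval -4.26 to 4.11), with adjusted p = 1 for each in limma.

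Cspg4 and Mcam are both pericyte surface genes, yet Mcam (chr9:44134658-44142727) was below 0 throughout. Probe set 1416357_a_at read -46.47, -15.89, -60.66 and -34.05 on SSC arrays 1 to 4 and -34.86, -6.79, -58.65 and -47.94 on BCSP arrays 1 to 4. The values were spread widely, were lowest in experiment 3 in both populations, and overlapped. The difference was -2.21 points (SE 15.0, 95% interval -35.9 to 31.5), lower in SSCs in 3 of 4 experiments (limma adjusted p = 1). Of 9 other pericyte genes, 1 was above 0 on all 8 arrays, Ndufa4l2, at 64.9 ± 22.8 on SSC arrays (SD, n = 4) and 66.9 ± 22.0 on BCSP arrays (SD, n = 4), and 7 on none. Notch3, the receptor of mural cells, scored -58.7 ± 7.78 (SD, n = 4) and -75.5 ± 6.30 (SD, n = 4), and Abcc9 and Vtn were below 0 on every array. The pericyte list's median ran from -68.3 to -35.0 on SSC arrays and from -51.7 to -29.6 on BCSP arrays, and 0 genes differed after adjustment.

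Acta2 (chr19:34240336-34255585) had 3 probe sets, none above 0 on any array. Probe set 1416454_s_at, a kind that can be shared by several transcripts or genes, read -9.1, -14.4, -24.4 and -4.5 on SSC arrays 1 to 4 and -13.62, -15.45, -24.83 and -13.09 on BCSP arrays 1 to 4. The SSC array was the higher one in 4 of 4 experiments, on average by 3.65 points (SE 12.0, 95% interval -23.3 to 30.6), but the populations overlapped (limma adjusted p = 1). Leaving out arrays moved the difference between 0.781 and 7.41 points.

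Probe set 1444105_at of Acta2 read -79.96, -86.39, -99.79 and -99.19 on SSC arrays 1 to 4 and -25.71, -68.12, -66.13 and -52.86 on BCSP arrays 1 to 4. All SSC arrays lay below all BCSP arrays, the only member probe set without overlap; 0.773% of all probe sets did so in this direction. The difference was -38.1 points (SE 10.4, 95% interval -61.5 to -14.7), lower in SSCs in 4 of 4 experiments (limma adjusted p = 1). With the experiment as a block the limma adjusted p was 0.933. On each of the 8 arrays the silent reference's 95th percentile was higher than this probe set, and the sign is opposite to that of 1416454_s_at.

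The third probe set, 1456658_at, read -18.01, -87.73, -86.12 and -38.9 on SSC arrays and -3.91, -40.34, -96.63 and -54.96 on BCSP arrays. It varied most of the members, over 92.7 points, and overlapped, with a difference of -8.73 points (95% interval -58.4 to 41.0, limma adjusted p = 1).

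Of 12 endothelial genes, 10 scored lower and 2 higher on average in SSCs, and 0 passed the adjusted threshold. All 12 were below 0 on every array, with list medians from -90.3 to -75.7 on SSC arrays and from -73.9 to -40.6 on BCSP arrays and a median difference of -14.0 points. Sox17 scored -86.9 ± 9.37 on SSC arrays (SD, n = 4) and -33.0 ± 17.7 on BCSP arrays (SD, n = 4), and Robo4 -83.2 ± 5.89 (SD, n = 4) and -43.6 ± 11.4 (SD, n = 4). Cldn5 and Emcn were also lower on average, and these 4 of 12 had an unadjusted p under 0.05, against 2.4% of all probe sets. On every array the silent reference's 95th percentile was higher than each of these 4 genes and than the list's median. Higher averages in SSCs were found for Cdh5, the endothelial cadherin, with -25.3 ± 4.10 on SSC arrays (SD, n = 4) against -54.0 ± 29.5 on BCSP arrays (SD, n = 4), and for Pecam1, by 3.36 points. The part of these genes in the difference of 1444105_at was not tested. In these bulk samples, fewer cells of a type and less RNA per cell cannot be told apart.

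Of 12 other smooth muscle contractile genes, 2 were above 0 on all 8 arrays and 9 on none. Cald1, which encodes caldesmon and is not restricted to muscle, scored 50.2 ± 5.61 on SSC arrays (SD, n = 4) and 52.7 ± 6.77 on BCSP arrays (SD, n = 4), and Smtn, smoothelin, 51.8 ± 34.5 (SD, n = 4) and 31.3 ± 33.9 (SD, n = 4). Smtn was barely above the threshold on some arrays, at 0.23 on SSC array 3, 3.89 on BCSP array 3 and 0.06 on BCSP array 4. Tpm2, a tropomyosin, scored 16.2 ± 7.17 on SSC arrays (SD, n = 4) and 10.7 ± 9.69 on BCSP arrays (SD, n = 4). It was above 0 on 7 arrays, as was another of its 4 probe sets. Myh11, smooth muscle myosin, scored -26.4 ± 19.4 on SSC arrays (SD, n = 4) and -36.5 ± 21.4 on BCSP arrays (SD, n = 4), and Myocd and Actg2 were below 0 on every array. The list's median difference was 5.31 points, with 0 genes called. Of 5 other actins, each read by its probe set of highest mean, the cytoplasmic Actg1 was above 0 on all 8 arrays and Actb on 7, with another Actb probe set above 0 on all 8, while Acta1 and Actc1 of striated muscle were above 0 on none.

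Nes (chr3:87971093-87980451), which encodes the intermediate filament nestin, also had 3 probe sets with no value above 0. Probe set 1418289_at read -55.41, -14.24, -7.65 and -7.69 on SSC arrays 1 to 4 and -21.46, -5.93, -15.82 and -12.31 on BCSP arrays 1 to 4. SSC array 1 stood apart from the rest, and the populations overlapped. The difference of -7.37 points (95% interval -40.4 to 25.7, limma adjusted p = 1) turned to 4.02 without that array.

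Probe set 1453997_a_at of Nes read -2.46, -23.65, -46.81 and -15.79 on SSC arrays 1 to 4 and -16.3, -46.07, -59.48 and -40.24 on BCSP arrays 1 to 4. The SSC array was the higher one in 4 of 4 experiments, on average by 18.3 points (SE 14.4, 95% interval -14.1 to 50.8), yet the populations overlapped (limma adjusted p = 1). Leaving out arrays moved the difference between 11.8 and 26.6 points. Probe set 1449022_at read -61.65, -32.14, -76.8 and -11.1 on SSC arrays and -40.82, -38.34, -64.86 and -34.4 on BCSP arrays, a difference of -0.82 points in 2 of 4 experiments each way (limma adjusted p = 1). Of 8 other intermediate filament genes, Vim and Synm were above 0 on all 8 arrays and 6 on none. Of 9 glial and neuronal genes, Cdh19 and S100b were above 0 on all 8 arrays and 7, among them Sox10 and Tubb3, on none.

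Vcam1 (chr3:116110020-116129688) gave different answers by probe set. Probe set 1448162_at read 58.96, 57.55, 57.52 and 53.77 on SSC arrays 1 to 4 and 48.02, 55.55, 63.65 and 66.28 on BCSP arrays 1 to 4. All were above 0, exceeded 84.9% to 90.1% of probe sets on their arrays, and overlapped, with a wider spread in BCSPs (SD 8.28) than in SSCs (SD 2.22). The difference was -1.43 points (95% interval -14.6 to 11.8, limma adjusted p = 1).

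Probe set 1451314_a_at of Vcam1 read -14.87, -21.56, -29.17 and -18.88 on SSC arrays and -25.45, -3.79, -23.22 and -33.56 on BCSP arrays, and 1415989_at read -33.6, -48.66, -63.13 and -44.5 on SSC arrays and -38.87, -43.63, -69.0 and -49.86 on BCSP arrays. Both were below 0 on every array and overlapped, with differences of 0.39 and 2.87 points (limma adjusted p = 1 for each). Of 10 adhesion partners and relatives, Lama4, Cd44 and Itgb1, a beta chain of VCAM1 receptors, were above 0 on all 8 arrays, and 6 were on none. Among those 6 were the integrin chains Itga4, Itga9 and Itgb7. No other probe set of Itga4 or Itga9 was above 0 on any array. All 10 genes were read by their probe set of highest mean. Another probe set of Lama4 was above 0 on 0 arrays and the others of Itgb1 on at most 1, while another of Cd44 was on 8. Icam2, an endothelial adhesion gene, scored -86.4 ± 9.02 on SSC arrays (SD, n = 4) and -53.3 ± 20.9 on BCSP arrays (SD, n = 4) (limma adjusted p = 1).

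Across the members, 6 probe sets were higher and 7 lower in SSCs, with a median difference of -0.0775 points against -0.605 over all probe sets. The median size of the difference was 2.21 points, against 7.61 over all. None of the 13 passed an adjusted p of 0.05 in limma, where 0.0% of all probe sets did, and 1 of 13 had an unadjusted p under 0.05, against 2.4% (1081 probe sets). In simulated scores the same fit found 0% of shifts of 40 points, 42% of 80 and 97.5% of 120. The shifts were placed only on probe sets with a mean score in the middle of the scale and a limited spread. The arrays were drawn without shared experiments. Most member probe sets have means outside that middle, among them Ctsk, Cspg4, Mcam and Acta2 1444105_at, so these rates do not apply to them directly. A miss therefore does not show that the populations are alike, and the intervals above give the differences that remain possible.

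**Figure D2:**
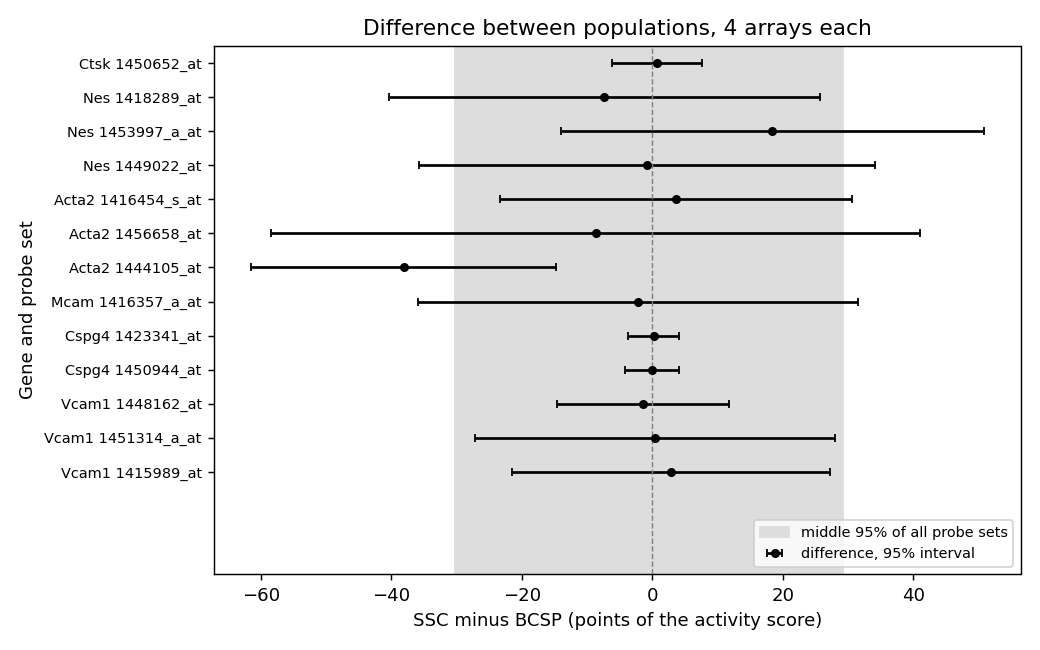
SSC minus BCSP in points of the activity score (horizontal axis) for each member probe set, with the 95% interval of the limma fit and the middle 95% of differences of all probe sets shaded. Only the interval of Acta2 1444105_at, -61.5 to -14.7, leaves out 0, and its adjusted p was 1.

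Several members were lowest in the same experiment. Of the 13 probe sets, 8 were lowest in experiment 3 in both populations, against 18.0% of all probe sets, namely those of Ctsk, Mcam and both of Cspg4, 2 of Nes, 1 of Acta2 and 1 of Vcam1. This was noticed in the values, and the test was added afterwards. A limma F test over experiments called 0 of 13, with a lowest adjusted p of 0.141, while it called 0.995% of all probe sets, and 1 of 13 had an unadjusted p under 0.05, against 24.9%. The 448 calls behind that share fell to between 0 and 24 when arrays were left out, and to 0 without the trend. That test found 0% of simulated 100-point shifts in 1 experiment, so a miss in it says little. The actin 3′ score minus the 5′ score, a sign of RNA or amplification quality, was 59.6 and 64.9 points on the arrays of experiment 3 and 23.1 to 44.2 on the others. The same measure for Gapdh did not set experiment 3 apart, at 54.7 and 49.1 points there, 53.9 and 71.9 in experiment 4 and 21.3 to 44.2 in experiments 1 and 2. The median of the hybridization controls was 32.8 and 42.0 there, 68.3 and 72.0 in experiment 1, and -25.4 to 8.24 elsewhere. Their part in the low scores of experiment 3 was not tested.

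**Figure D3:**
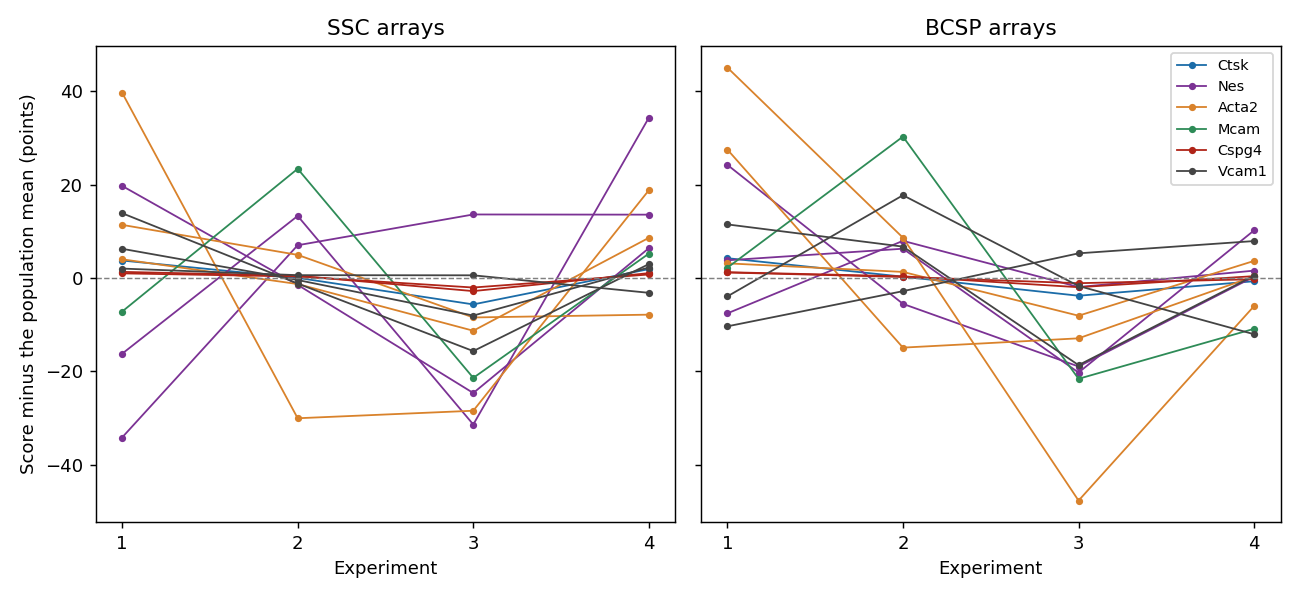
Score of each member probe set minus its mean over the 4 arrays of the population (vertical axis, points) in experiments 1 to 4 (horizontal axis), SSC arrays on the left and BCSP arrays on the right, coloured by gene. In 8 of 13 probe sets experiment 3 is the lowest point in both panels.

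Genes used for tracing in other work were mixed in the same cells. Of 9 genes of periosteum and cartilage, 5 were above 0 on all 8 arrays, among them Sox9, Acan, Postn and Prrx1, and 3 on none, among them Axin2 and Msx2. Of 13 genes of marrow stroma, each read by its probe set of highest mean, 6 were above 0 on all 8, among them Nt5e, Foxc1, Angpt1 and Pdgfrb. Another 4 were on none, among them Kitl and Adipoq. Other probe sets of the same gene did not always follow. Those of Angpt1 and Pdgfrb were above 0 on 0 arrays and those of Nt5e on at most 3, while that of Foxc1 was on 8. All 10 genes of cartilage and bone matrix, such as Col2a1 and Ibsp, were above 0 on all 8 arrays. Of 11 blood cell genes and 9 myogenic genes, 0 were above 0 on all 8, although Hba-a1, a haemoglobin chain, was on 5 and Laptm5 on 3. Of 6 relatives of Ly6a, 0 were above 0 on all 8, with Ly6k on 5. No gene of these lists passed the adjusted threshold.

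**Figure D4:**
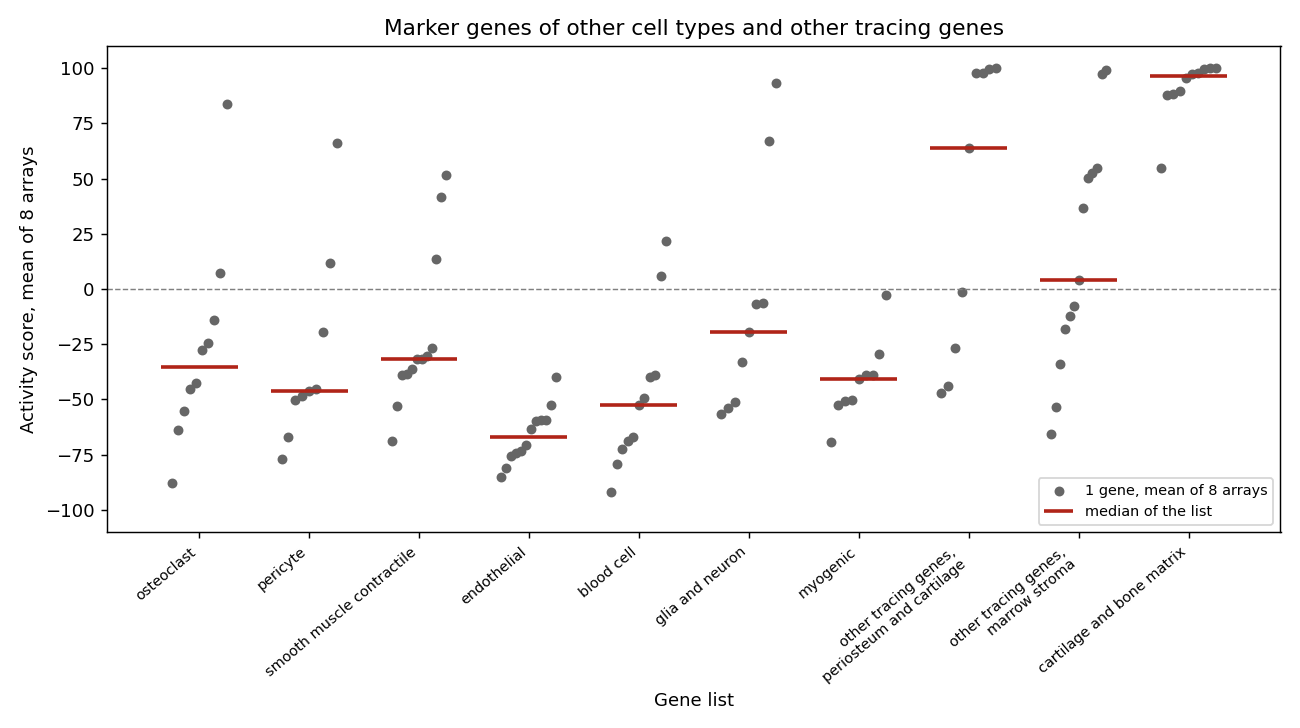
Mean activity score over the 8 arrays (vertical axis) of each gene in lists of cell type markers and tracing genes (horizontal axis), with the list median in red and 0 dashed. All 10 cartilage and bone matrix genes lie above 0, and all 12 endothelial genes lie below.

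The probe sets whose scores followed a member most closely over the 8 arrays were found among 32198 that span 20 points or more, as a description over arrays that share experiments. For Nes 1418289_at the closest were Ago3 (Pearson r = 0.971), Abraxas2 (0.970) and Abhd13 (0.964). For Acta2 1416454_s_at they were Rev3l (0.983), Tmem150a (0.974) and Ywhag (0.974). For Mcam they were Wdr54 (0.994), Ppp2r1a (0.976) and Snx15 (0.974). Nes 1418289_at read -55.41 on SSC array 1 and -21.46 or higher on every other array, so that array weighs heavily in its correlations. Ctsk, Cspg4 and Vcam1 span less than 20 points in their highest probe set and were not searched.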

How the data were processed

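RNA of sorted SSCs and BCSPs was amplified in repeated rounds and hybridized to Affymetrix arrays, and the authors deposited a Gene Expression Commons activity score per probe set. For probe summarisation, no method is named in the sources read. Of 45101 probe sets, 64 controls were left out. The platform annotation gave 34958 probe sets 1 symbol and 932 several, and 9211 are not listed. Positions and promoters are from RefSeq.

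The members and gene lists were chosen with earlier results of these data known. All members were named, and of each list at most 4 genes above 0 on all arrays and 4 with the smallest p. Hba-a1, Laptm5, Ly6k, Actb, Cdh5, Pecam1, Itgb3, Oscar, Tpm2, Itga4 and Itga9 were named after their values were seen. Where a listed gene had several probe sets, that of the highest mean score stood for it.

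The scores of 45037 probe sets were fitted in R 4.3.3 by lmFit and trended eBayes of limma 3.58.1, with Benjamini-Hochberg adjustment at 0.05. The BCSP array of experiment 2 has conflicting numbers in the labels and was taken as BCSP 2. Deviations of same-experiment arrays correlated at 0.394, 0.164, 0.605 and 0.173, so the numbers were taken to pair arrays, and the block was an alternative. The others were quantile normalization, median centring, an inverse normal scale, filters on low scores, 1 probe set per gene, no trend, the methods' t-test on the same values and leaving out arrays. The F test over experiments and leaving out both arrays of an experiment were chosen after seeing the data.

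Both fits were checked on simulated data with 200 changed probe sets. These were taken from probe sets with a mean score in the middle of the scale and a limited spread. The first pass mark, set on recovery of an 80-point shift, was not met, and the 120-point shift was then added and the mark moved to it. The simulation of the F test was redrawn with smaller spreads, and once with only probe sets of low spread changed, after finding 0%, and still found 0%. In the version kept, 58.5% of the changed probe sets were among the 200 with the lowest p.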

Additional observations from a re-analysis of the deposited data

Results flagged for a closer look

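Nes 1418289_at was at -55.41 on SSC array 1, far below the nearest of the other SSC arrays at -14.24, a gap of 0.862 of the group's range. Chance sets a sample apart in this way in about 1 in 20 groups. Both populations of all 13 member probe sets were searched and this was the only flag, about what chance gives. The other two Nes probe sets read -2.46 and -61.65 on that array.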

How the results depend on the processing

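No call between SSCs and BCSPs was made under any of the alternatives run, and the lowest adjusted p of a member was 0.933. The methods' t-test gave 1094 probe sets under an unadjusted 0.05 and 0 after Benjamini-Hochberg adjustment. With the replicate block for the experiment, which pairs the arrays, 0 probe sets passed and 2268 had an unadjusted p under 0.05 (1081 without), so the pairing changed no call. The count of 4 member probe sets above 0 on all 8 arrays did not move. Of 248 member differences recomputed, 48 changed sign, none of them called. Cspg4 1450944_at turned to 0.0163 with quantile normalization, 0.345 with centring and 0.0145 on the inverse normal scale, and Vcam1 1448162_at to 1.5 with quantile normalization. Leaving out arrays gave -0.641 to 2.52 points for Ctsk, -12.5 to 4.02 for Nes 1418289_at and -12.3 to 9.64 for Nes 1449022_at. It gave -24.6 to 6.29 for Acta2 1456658_at, -10.0 to 7.88 for Mcam, -0.185 to 0.869 for Cspg4 1423341_at and -0.738 to 0.860 for Cspg4 1450944_at. For Vcam1 it gave -5.55 to 2.27 (1448162_at), -4.38 to 6.44 (1451314_a_at) and -3.35 to 8.09 (1415989_at). The sign held for Acta2 1444105_at, from -44.7 to -29.0, Acta2 1416454_s_at, from 0.781 to 7.41, and Nes 1453997_a_at, from 11.8 to 26.6. The F test over experiments, with 448 calls, gave 1147 with quantile normalization, 1418 with centring, 861 on the inverse normal scale, 1574 and 1668 for probe sets above 0 on at least 1 and at least 4 arrays, 250 with 1 probe set per gene and 0 without trend. Leaving out arrays gave 0 to 24, the 24 without SSC array 1, so that count rests on the full set of arrays. The filters keep 4 member probe sets and 1 probe set per gene keeps 6.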
